A study of Homo sapiens with 10 samples.

Results

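CEBPA, CEBPB, CEBPD, CEBPG, NFIL3, DBP, HLF, TEF and BACH1 are transcription factors with a basic leucine zipper (bZIP), the protein fold with which they pair and bind DNA. They were taken by gene symbol as 9 of the 32738 genes of a count table from HepG2, a human hepatoma cell line. Untreated cells were compared with cells exposed for 17 h to 2 µg/ml tunicamycin, which blocks N-linked glycosylation and so causes stress of the endoplasmic reticulum (ER). Each condition had 5 libraries of 3′ mRNA tags, and as each replicate experiment had its own day, libraries with the same replicate number form a pair. The control cells were untreated, and neither group carried a genetic change made for the experiment. All 9 genes had counts, and 8 of them passed the filter on low counts. DBP did not.

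C/EBP factors bind the same DNA element as homodimers or as heterodimers with each other, and which of them dominates is known to shape liver gene expression. C/EBP alpha (CEBPA) maintains the differentiated hepatocyte, C/EBP beta (CEBPB) and C/EBP delta (CEBPD) act in the acute phase response and in stress, and C/EBP gamma (CEBPG), which lacks a strong activation domain, serves as a partner of other bZIP factors, ATF4 included. DBP, HLF and TEF form the proline and acidic amino acid rich (PAR) family, which carries the output of the circadian clock to genes of detoxification in the liver, and NFIL3 represses through the same sites. BACH1 pairs with small MAF proteins and represses genes of heme and redox metabolism until heme releases it.

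In GRCh38 with GENCODE v44, CEBPA occupies chr19:33299934-33302534 on the minus strand and CEBPG chr19:33373685-33382686 on the plus strand, so that both lie on chromosome 19, as does DBP at chr19:48630030-48637379 on the minus strand. CEBPB occupies chr20:50190830-50192668 on the plus strand, and like CEBPA it has a single exon. HLF occupies chr17:55264960-55325187 on the plus strand and NFIL3 chr9:91409045-91423832 on the minus strand. TEF occupies chr22:41367333-41399326 and BACH1 chr21:29194071-29630751, both on the plus strand. Exons of DBP overlap those of SPHK2 on the opposite strand, and exons of CEBPB overlap those of CEBPB-AS1. Since the strand setting of the counting was not stated, reads of such pairs may not have been told apart.

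Promoter windows of RefSeq on GRCh38.p14, from 250 bases before to 50 bases after a transcription start, were found for 8 of the 9 members, 15 windows in all. Only short stretches with a motif match are shown, as the members' link to sites that stress and clock factors are known to bind, with the matched letters in capitals. The first is a cyclic AMP response element (TGACGTCA) in one of the HLF windows, the second and the third are E-boxes (CACGTG, the element of clock activators) in the 2 TEF windows, and the last holds the first 8 letters of the C/EBP-ATF composite element in a CEBPG window. All are on the plus strand, 5′ to 3′.
HLF, chr17:55264942-55264971: ggtgcgggcccTGACGTCActcttgtcagg
TEF, chr22:41367248-41367277: gcgcgacagctcCACGTGctgcagctggcg
TEF, chr22:41381737-41381766: cacctggccccgCACGTGtctatcttatcc
CEBPG, chr19:33374060-33374089: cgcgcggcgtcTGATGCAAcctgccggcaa
The matches begin at -7, -195, -193 and -42 from the start of their transcript. Of all 35116 windows, 1.85% held the cyclic AMP response element, 7.26% the E-box and 0.866% the 8 letters TGATGCAA, so that the E-box is a common match. The 8 letters were searched after the full composite TGATGCAAT, of which they are a part and which 0.236% of windows held, had given no match. On both strands of the members' windows, these letters had no match either: TTGCGCAA (C/EBP palindrome, in 0.151% of windows), TTACGTAA and TTATGTAA (PAR sites, 0.125% and 0.886%), TGACGTGG (0.729%), GCTGAGTCA (the MAF recognition element, 0.561%) and the ER stress element (0.0769%). The 300 bases searched leave out enhancers and more distant elements, and a match is a description of the letters only.

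The libraries held 4242538 to 4888292 counts in the untreated group and 2234682 to 5029864 in the tunicamycin group, where replicates 5 and 4 were the shallowest with 2234682 and 3567316. Mitochondrial genes took 22.7% to 25.2% of the untreated and 18.3% to 28.8% of the tunicamycin counts. All 10 hepatocyte markers were counted, with summed normalized counts of 65438 to 84129 in untreated and 52328 to 58736 in tunicamycin libraries. COL1A2, THY1, LUM and DCN of fibroblasts, KDR and TEK of endothelium, and PTPRC, CD3E and MS4A1 of leukocytes had no count in any library. The fibroblast and endothelial lists summed to at most 4.72 and 24.7 normalized counts in a library. The second value came from CDH5, with up to 18 counts in a tunicamycin library and 0 in the untreated ones. The 6 leukocyte markers summed to 1169 to 1640 in untreated and 1239 to 2046 in tunicamycin libraries, nearly all from LYZ. CD68 had at most 41 counts in an untreated and 19 in a tunicamycin library (log2 fold change -0.83, adjusted p = 0.0319 by edgeR). Normalized counts are counts divided by the library size scaled with TMM (trimmed mean of M values) and multiplied by the mean scaled size.

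Tunicamycin was accompanied by more CEBPB and CEBPG mRNA and by somewhat less CEBPA and HLF mRNA. CEBPB stood at 2.89 times and CEBPG at 2.30 times the untreated level, while CEBPA and HLF fell to 80.8% and 79.3% of it. CEBPD, NFIL3, TEF and BACH1 did not pass the test, and DBP was too sparse to be tested. By the quasi-likelihood test of edgeR over 12733 genes, with a threshold of 0.05 on the adjusted p, 4 of 8 tested members, 50%, were thus called, 2 of them higher and 2 lower, against 34.2% of all genes tested, with 17.6% higher and 16.6% lower. In 2 members every tunicamycin library lay above every untreated one, and in 1 member every one lay below, against 11.7% and 11.9% of all genes. The median log2 fold change of the 8 tested members was 0.14, beside -0.0033 for all genes tested. With so few members these shares describe the list and set it apart from nothing. In bulk RNA, a lower share of cells with a transcript and less of it per cell cannot be told apart.

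**Figure D1:**
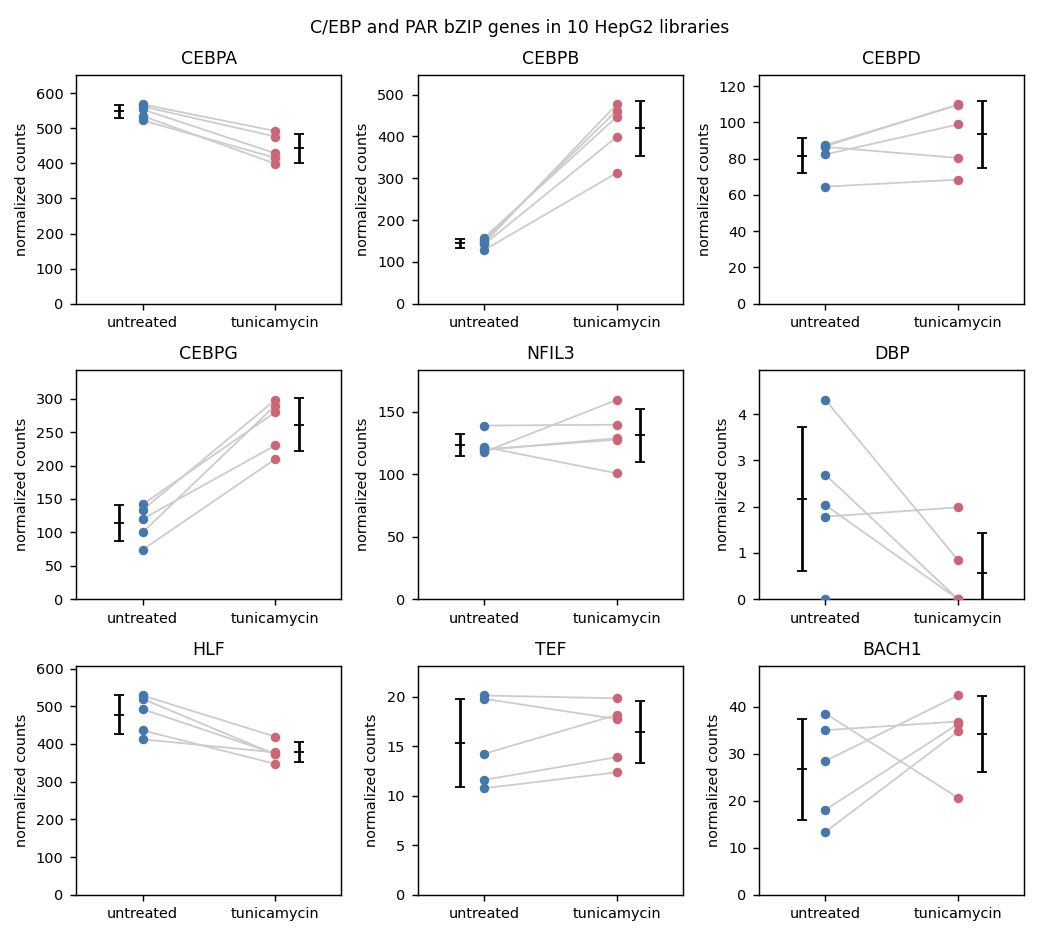
Normalized counts of the 9 genes in each library, 1 panel a gene with its own linear axis from 0. Points are the 5 untreated and 5 tunicamycin libraries, with the mean and the SD. The groups are apart for CEBPA, CEBPB and CEBPG, touch for HLF, where tunicamycin replicate 3 lies at 419 and untreated replicate 1 at 412, and overlap for the others.

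CEBPB, an activator of acute phase and stress genes, was counted at 128, 142, 157, 144 and 151 normalized counts in untreated replicates 1 to 5. After tunicamycin it was counted at 313, 399, 447, 477 and 462. The lowest treated library, replicate 1, was thus above the highest untreated one. The mean rose from 145 ± 11.0 to 419 ± 66.5 (SD, n = 5), a log2 fold change of 1.53 (SE 0.12, 95% interval 1.28 to 1.77, adjusted p = 9.46e-09 by edgeR). It was higher in 5 of 5 pairs, by 1.28 to 1.72 on the log2 scale. Among the 12733 genes it ranked 297 from the top by log2 fold change.

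CEBPG, the partner without a strong activation domain, was counted at 74.0, 99.9, 142, 133 and 119.9 in untreated replicates 1 to 5. With tunicamycin the values were 209, 289.8, 279.6, 298 and 230.02. The groups did not overlap, although the untreated libraries spread widely, with a coefficient of variation of 24.0%. The mean was 114 ± 27.3 untreated and 261 ± 39.3 with tunicamycin (SD, n = 5), a log2 fold change of 1.20 (SE 0.15, 95% interval 0.88 to 1.52, adjusted p = 7.2e-06 by edgeR). CEBPG was higher in 5 of 5 pairs and ranked 502 from the top.

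CEBPA, the factor of the differentiated hepatocyte, was counted at 562, 535, 568, 554 and 522 in untreated libraries and at 476, 399, 492, 429 and 416 with tunicamycin, replicates 1 to 5. Every treated library lay below every untreated one. The fall was small beside that of the genes that moved most, from 548 ± 19.0 to 442 ± 40.1 (SD, n = 5), and 26.9% of all genes had a lower log2 fold change. The log2 fold change was -0.31 (SE 0.09, 95% interval -0.48 to -0.13, adjusted p = 0.00868 by edgeR), and CEBPA was lower in 5 of 5 pairs. When all libraries were thinned to the depth of the smallest, the fold change was -0.22 and the call was lost (adjusted p = 0.145 by edgeR, against 0.00299 to 0.145 over 20 alternatives).

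CEBPD, the delta form of the acute phase response, was counted at 64.6 to 87.5 in untreated and 68.4 to 109.9 in tunicamycin libraries. Tunicamycin replicates 1 and 2 lay within the untreated range, and replicates 3, 4 and 5, at 109.6, 109.9 and 98.9, lay above it. CEBPD was higher in 4 of 5 pairs. The log2 fold change was 0.18 (95% interval -0.14 to 0.51, adjusted p = 0.387 by edgeR), so that an increase to 1.42 times lies within the interval. CEBPE, the remaining activating C/EBP, which is known from granulocytes, had 0 counts in all 10 libraries.

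**Figure D2:**
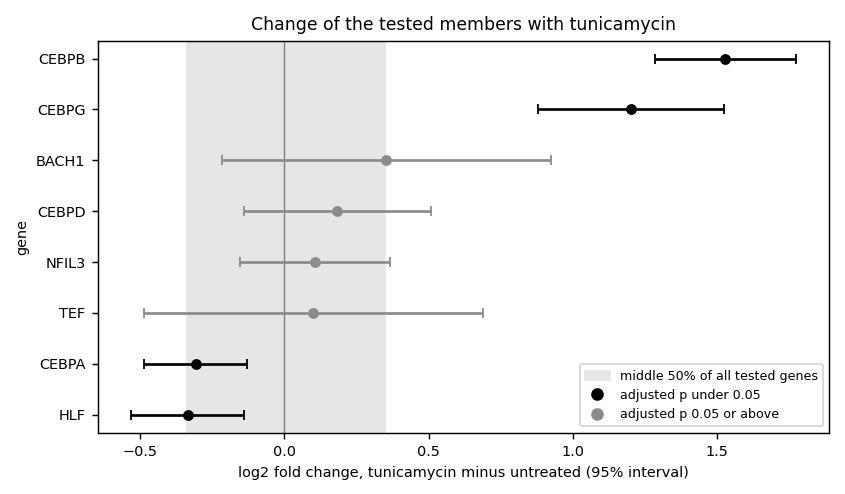
Log2 fold change of tunicamycin against untreated for the 8 tested genes (points) with 95% intervals (bars). Black points had an adjusted p under 0.05, grey points did not, and the shaded band holds the middle 50% of all tested genes, from -0.34 to 0.35. CEBPB and CEBPG lie far right of the band, and CEBPA and HLF lie inside it or at its edge.

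Because C/EBP proteins compete for partners and sites, the counts of the 4 expressed C/EBP genes were also set against each other within each library, where library scaling plays no part. These are mRNA counts and do not show the level or the form of the proteins. As 3′ tags do not scale with transcript length, the counts were compared without a length correction. Other differences between genes in how fully a transcript is counted were not corrected, so the shares are shares of counts. The summed normalized counts of the 4 genes were 888 ± 49.0 in untreated and 1217 ± 108 in tunicamycin libraries (SD, n = 5). Unlike the shares, this sum depends on library scaling. CEBPA made up 61.8 ± 3.48% of the sum in untreated libraries and 36.6 ± 4.78% after tunicamycin. The share of CEBPB was 16.3 ± 0.72% and 34.3 ± 3.37%, and that of CEBPG was 12.7 ± 2.47% and 21.5 ± 2.34%. CEBPD held 9.17 ± 0.83% and 7.62 ± 0.91%. CEBPA thus had the most counts of the 4 genes in all 5 untreated libraries. With tunicamycin it led in replicates 1 and 3 and had as many counts as CEBPB in replicate 2. CEBPB led in replicates 4 and 5, by 347 counts to 312 and by 229 to 206, in the shallowest treated libraries.

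**Figure D3:**
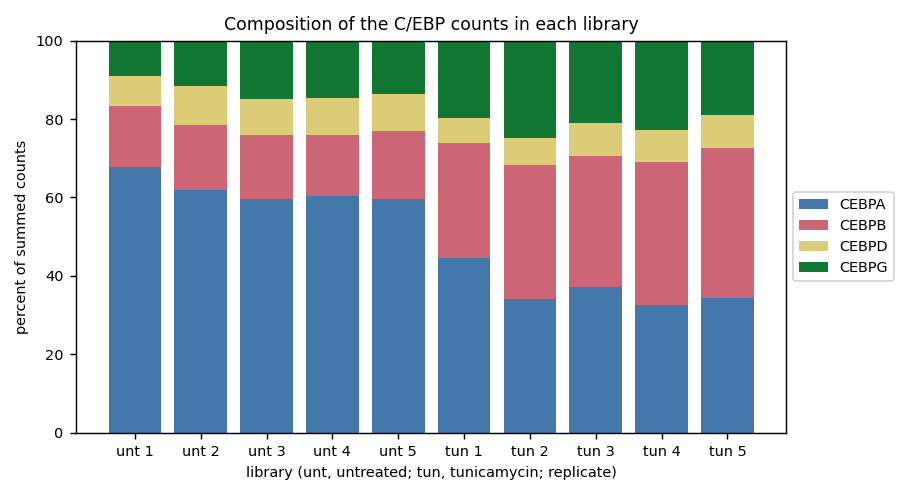
Stacked bars of the share of each C/EBP gene in the summed CEBPA, CEBPB, CEBPD and CEBPG counts, in percent, for each of the 10 libraries. The CEBPA share is 59.5% to 67.8% in untreated and 32.6% to 44.7% in tunicamycin libraries, and the space is taken by CEBPB and CEBPG.

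The ratio of CEBPB to CEBPA counts was 0.229, 0.266, 0.278, 0.261 and 0.291 in untreated replicates 1 to 5. With tunicamycin it was 0.656, 1, 0.908, 1.11 and 1.11. The log2 ratio rose by 1.83, from -1.92 ± 0.13 to -0.09 ± 0.31 (SD, n = 5; two-sided exact permutation p = 0.00794, the smallest that 5 against 5 allows, and 0.0185 adjusted over the 7 ratios compared). The ratio of CEBPG to CEBPA rose by 1.53 on the log2 scale, with the same exact p and adjusted p. For CEBPD against CEBPA the difference was 0.50 (exact permutation p = 0.0397, adjusted p = 0.0694), which did not pass. All 3 ratios to CEBPA were higher in 5 of 5 pairs, though the permutation did not use the pairs.

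HLF is the PAR factor with the most counts in these cells. It was counted at 412, 492, 528, 519.65 and 436 in untreated replicates 1 to 5 and at 378, 374, 419, 372 and 347 with tunicamycin. Only untreated replicate 1 was reached by a treated library, replicate 3. The mean fell from 478 ± 51.4 to 378 ± 26.1 (SD, n = 5), a log2 fold change of -0.33 (SE 0.09, 95% interval -0.53 to -0.14, adjusted p = 0.00916 by edgeR), lower in 5 of 5 pairs. After thinning to equal depth the log2 fold change was -0.31, just under the threshold (adjusted p = 0.0481 by edgeR).

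TEF, the PAR factor with the E-box in both promoter windows, had 10.8 to 20.1 normalized counts untreated and 12.4 to 19.8 with tunicamycin. The 2 ranges nearly coincide, with a log2 fold change of 0.10 and a wide 95% interval of -0.49 to 0.69 (adjusted p = 0.816 by edgeR). DBP, the PAR factor with the strongest daily rhythm in liver, had raw counts of 5, 2, 0, 3 and 2 in untreated and 1, 2, 0, 0 and 0 in tunicamycin replicates 1 to 5. The summed 12 and 3 counts give a ratio per library size of 0.293, with an exact Clopper-Pearson 95% interval of 0.0531 to 1.09 that covers counting error only. A difference in DBP was therefore not detectable at this depth.

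NFIL3, the repressor at PAR sites, was counted at 118, 119.5, 139, 120.1 and 122 in untreated and 159.6, 129, 139.8, 128 and 101 in tunicamycin libraries. The treated values lay on both sides of the untreated ones. The log2 fold change was 0.11 (95% interval -0.15 to 0.37, adjusted p = 0.547 by edgeR), and after thinning to equal depth it was -0.0047. A ratio to HLF also carries the fall of HLF, whose log2 fold change was -0.33, and is no separate result for NFIL3. The ratio of NFIL3 to HLF rose from a mean of 0.260 to 0.346, and its groups did not overlap. On the log2 scale this is 0.41 (exact permutation p = 0.00794, adjusted p = 0.0185), and after thinning it was 0.28 with an adjusted permutation p of 0.153, the highest over 12 alternatives, which began at 0.0185. The ratios of NFIL3 to DBP and to TEF did not pass (adjusted permutation p = 0.204 and 0.762), and the first rests on the few DBP counts and a pseudocount of 0.5.

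BACH1 was counted at 18.1, 13.4, 35.0, 38.5 and 28.5 in untreated and 36.3, 34.7, 36.8, 20.6 and 42.4 in tunicamycin libraries. Untreated replicates 1 and 2 and tunicamycin replicate 4 were the low ones. The log2 fold change was 0.35 with a 95% interval of -0.22 to 0.92 (adjusted p = 0.338 by edgeR). NFE2L2, the activator that competes with BACH1 for the same sites, was at 429 ± 50.5 and 401 ± 62.3 (SD, n = 5; log2 fold change -0.09, adjusted p = 0.569 by edgeR). The log2 ratio of BACH1 to NFE2L2 was 0.53 higher with tunicamycin (exact permutation p = 0.151, adjusted p = 0.204), which did not pass. BACH2 had a single count in all.

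By mean normalized count, the untreated order was CEBPA, HLF, CEBPB, NFIL3, CEBPG, CEBPD, BACH1, TEF and DBP. The ranges over libraries overlapped for the neighbours CEBPA and HLF, CEBPB and NFIL3, NFIL3 and CEBPG, CEBPG and CEBPD, and BACH1 and TEF. They were apart between HLF and CEBPB, between CEBPD and BACH1, and between TEF and DBP. With tunicamycin the order was CEBPA, CEBPB, HLF, CEBPG, NFIL3, CEBPD, BACH1, TEF and DBP, and neighbours overlapped for CEBPA and CEBPB, CEBPB and HLF, and NFIL3 and CEBPD. CEBPB thus passed HLF by its mean, and CEBPG passed NFIL3.

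The lists that follow are read beside the 17.6% of all genes tested that were called higher and the 16.6% called lower, with no test of a list. Among relatives and partners of the C/EBP factors, 3 of the 7 tested genes rose and the other 4 did not pass, with a median log2 fold change of 0.52. DDIT3, which encodes CHOP, the C/EBP homologous factor of the ER stress response, rose from 159 ± 19.6 to 424 ± 58.5 (SD, n = 5; log2 fold change 1.42, SE 0.11, adjusted p = 2.1e-08 by edgeR). TRIB3, a pseudokinase that binds ATF4 and CHOP, rose by 0.80, and TRIB1, which directs C/EBP alpha to degradation, rose by 0.52. ATF4, a partner of CEBPG, was at 3597 ± 413 and 3510 ± 449 normalized counts (log2 fold change -0.03, adjusted p = 0.823 by edgeR), and ATF5 had a log2 fold change of -0.19 (adjusted p = 0.368). Both are mRNA values and do not show the level of the protein. By immunoblot, the paper reports more ATF4 protein in the same cell line after tunicamycin, given there at a higher dose.

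Genes known for C/EBP-ATF composite elements included 9 that were tested, of which 7 rose, and the median log2 fold change was 0.80. WARS, the tryptophanyl-tRNA synthetase, went from 229.98 ± 29.4 to 1043 ± 66.3 (SD, n = 5; log2 fold change 2.18, SE 0.10, adjusted p = 4.2e-12 by edgeR). PPP1R15A, the phosphatase subunit that restores translation after stress, rose by 1.52. DDIT3 and TRIB3 are on this list too. SESN2 and SLC38A2 did not pass, at 0.00 and -0.11. CHAC1 and FGF21 were listed with no count in any library.

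Of 10 tested targets of C/EBP alpha in liver, 1 rose and 4 fell, with a median log2 fold change of 0.06. IGFBP1, a secreted binding protein of insulin-like growth factors that is also known to respond to stress, rose from 137 ± 23.0 to 2338 ± 296 (SD, n = 5; log2 fold change 4.09, SE 0.13, adjusted p = 3.4e-14 by edgeR). FABP1, the liver fatty acid binding protein, fell by 1.38, and TTR, which carries thyroid hormone, fell by 1.02. APOB and TF fell by 0.78 and 0.38. ALB and SERPINA1, with log2 fold changes of 0.04 and 0.08, did not pass. Of the 10 hepatocyte markers, which share ALB, TTR, TF, SERPINA1 and APOB with this list, 6 fell, and the part of that change in the CEBPA values was not tested.

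Acute phase genes with C/EBP sites gave 2 higher and 4 lower among 7 tested, with a median of -0.52. LCN2, which encodes the siderophore-binding protein lipocalin, had at most 3 counts in an untreated library and at least 34 in a treated one. Against a floor of 3 counts per untreated library, its mean of 65.7 normalized counts was at least 24.1-fold higher. ORM1, an acid glycoprotein, had a log2 fold change of 0.36 (adjusted p = 0.0482 by edgeR), a call that was lost under 8 of 20 alternatives, 6 of them with 1 library left out, at adjusted p-values up to 0.121. It shares sequence with ORM2, so that their reads may be split. HPX, the heme carrier of plasma, fell by 1.93, SAA4 by 1.61, HP by 1.09 and C3 by 0.52, and after thinning to equal depth HPX and HP were not called. CRP had no count in any library.

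Among clock genes, 3 of 16 tested rose and 1 fell, with a median log2 fold change of 0.22. The 18.8% higher is near the share over all genes, and the 25% called in either direction is below the 34.2% of all genes. BHLHE40, a repressor of clock output, rose by 0.91, and CRY1, a cryptochrome that represses the clock's activator, rose by 0.58. NR1D2, a REV-ERB repressor, fell from 44.6 ± 5.84 to 26.0 ± 3.89 (SD, n = 5; log2 fold change -0.79, SE 0.19, adjusted p = 0.00338 by edgeR). CLOCK and ARNTL, whose proteins form the activator of the E-box, did not pass, at 0.19 and 0.43. ARNTL was sparse, with at most 11 counts in an untreated and 12 in a tunicamycin library (SE 0.41). After thinning to equal depth, 1 clock gene was called higher, BHLHE40 was not, and NR1D2 just missed the threshold (adjusted p = 0.0556, against 0.00135 to 0.0556 over 20 alternatives), with log2 fold changes of -0.87 to -0.70 over these. BHLHE40 was not called with the block in DESeq2 either.

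Known targets of the PAR factors were poorly covered, with 4 of 10 tested. By edgeR 0 of these were called in either direction, and DESeq2 also called 0, while 2 higher and 1 lower had an unadjusted p under 0.05. ALAS1, the first enzyme of heme synthesis, had a log2 fold change of 0.39 (adjusted p = 0.0612 by edgeR), and POR, the electron donor of cytochromes P450, one of -0.17 (adjusted p = 0.112). Without untreated replicate 1, 2 genes of this list, ALAS1 and PDXK, were called higher, and PDXK was called under that alternative alone. ALAS1 was called without untreated replicate 3 as well, and under 2 of 20 alternatives in all. With scaling by library size alone, POR was called lower at -0.26 (adjusted p = 0.0247, against 0.0247 to 0.270 over 20 alternatives), its only call. CYP2A6, CYP2C8 and CYP4A11 had no count in any library.

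Of 10 tested BACH1 targets, 6 rose and 1 fell, with a median log2 fold change of 0.65. GCLC, the catalytic subunit of glutathione synthesis, rose from 127 ± 18.7 to 272 ± 29.7 (SD, n = 5; log2 fold change 1.11, SE 0.12, adjusted p = 8.8e-07 by edgeR), and TXNRD1, thioredoxin reductase, rose by 0.93. GCLM, SLC7A11, FTH1 and NQO1 were the others that rose. HMOX1, the heme oxygenase that is the best known BACH1 target, moved the opposite way and fell from 373 ± 79.5 to 106 ± 11.7 (SD, n = 5; log2 fold change -1.80, SE 0.14, adjusted p = 1.0e-08 by edgeR). The small MAF partners MAFF, MAFG and MAFK all rose, by 0.87, 0.52 and 0.49. KEAP1, which holds NFE2L2 in the cytoplasm, had a log2 fold change of -0.32 (adjusted p = 0.0608 by edgeR) and passed with the replicate block in edgeR (adjusted p = 0.0276, against 0.0137 to 0.278 over 20 alternatives), but not with the block in DESeq2. FTL among the targets passed with the block in both tools. FTH1 and FTL have many pseudogenes, with which reads may be shared.

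The genes most like each changed member over the 10 libraries were sought among 7692 genes with a mean of at least 50 normalized counts, by Pearson's r of the log2 library-scaled counts. The libraries fall into 2 conditions, so that any gene that differs by condition shares much of such an r, which is given as a description. For CEBPB they were KYNU (r = 0.995), an enzyme of tryptophan breakdown, and SRPRB (r = 0.993), a subunit of the signal recognition particle receptor. For CEBPG they were SLC35F6 and ODC1, the first enzyme of polyamine synthesis, both at r = 0.988. CEBPA was most like SMO (r = 0.974), the Hedgehog signal transducer, and DIXDC1 (r = 0.965). HLF was most like UBR7 (r = 0.951) and RNF219 (r = 0.944).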

How the data were processed

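Raw counts per gene for the 10 libraries were deposited by the authors, who prepared QuantSeq 3′ FWD libraries and mapped to hg19 and Ensembl transcripts with the nf-core RNA-Seq pipeline at its defaults. The aligner, the counting program and the strand setting are not given in the sources used here. All count columns were used. Genes were filtered with filterByExpr (minimum count 2, minimum total 10), scaled by TMM and tested with edgeR 4.0.16 in R 4.3.3, with condition as the only term and Benjamini-Hochberg adjustment at 0.05 over 12733 genes. SE is the absolute log2 fold change over the square root of F. DESeq2 1.42.0, the replicate block, other scalings and filters, thinning to the smallest library and leaving out each library were alternatives. Permutation tests used scipy 1.17.1.

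The series text gives replicates as separate days, which pairs the numbers. Deviations of paired libraries from their group means correlated at 0.292, 0.00707, 0.0517, 0.119 and 0.0655 for replicates 1 to 5 over 10743 genes. P-values cover the spread between these 5 experiments of one cell line. Depths of 2234682 to 5029864 counts limit sparse genes such as DBP, and intervals of counts cover counting error only.

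The members and lists were chosen with earlier results of these data known. Named genes are all members, close relatives and rivals (CEBPE, DDIT3, ATF4, ATF5, NFE2L2, BACH2), from each list the 2 most raised and the 2 most lowered of those called, and the 2 genes most like each called member. Other list genes were named after their values were seen. Hits in promoters used GRCh38.p14 windows from RefSeq, and gene positions GENCODE v44 on GRCh38, which differs from the build of the counts. A comparison of the protein sequences was planned and not done here. A few list genes that the rule would name are not reported here.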

Additional observations from a re-analysis of the deposited data

Results flagged for a closer look

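Among 38 groups of 5 values, those of the members, their ratios, the CEBPB share, the library totals and the mitochondrial share, 3 held 1 library far from the rest by Dixon's test, where chance gives about 1.9. CEBPD had 64.6 normalized counts in untreated replicate 1 and 82.3 to 87.5 in the other untreated libraries. The log2 ratio of CEBPD to CEBPA was accordingly -3.11 there and -2.69 to -2.62 in the others. NFIL3 had 139 normalized counts in untreated replicate 3 and 118 to 122 in the others.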

How the results depend on the processing

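Of 160 recomputed fold changes of members, 158 kept their direction and their side of the threshold, as did 79 of 84 recomputed ratios. CEBPB, CEBPG and HLF kept their calls under all 20 alternatives each, with leave-one-out log2 fold changes of 1.48 to 1.62, 1.08 to 1.30 and -0.38 to -0.29. HLF came closest to losing its call after thinning, a single random draw (adjusted p = 0.0481 by edgeR). CEBPA kept its call under 19 of 20, and at -0.35 to -0.26 without single libraries. Thinning to the smallest library left 1 member called lower, with CEBPA at -0.22 (adjusted p = 0.145), NFIL3 at -0.0047 and the log2 ratio of NFIL3 to HLF at 0.28, and called 3248 genes. The NFIL3 to TEF ratio, never past the threshold, ranged from -0.18 to 0.08 without single libraries, and was 0.0129 without untreated replicate 2, 0.0407 without untreated replicate 4 and 0.0771 without tunicamycin replicate 5. The CEBPD to CEBPA ratio ranged from 0.40 to 0.63 and passed at 0.63 without tunicamycin replicate 1 (adjusted permutation p = 0.0278, against 0.0278 to 0.153 over 12 alternatives). The cause was not tested. With the replicate block in edgeR 4811 genes were called, and CEBPB at 1.52, CEBPG at 1.22, CEBPA at -0.31 and HLF at -0.33 kept their calls. In the lists this block added KEAP1, FTL, ORM2, HNF4A and LYZ. With the block in DESeq2 3878 genes were called, against 4322 in DESeq2 without it. FTL and HNF4A were added, and the calls of ATF3, BHLHE40 and CD68 were lost. LYZ was called in DESeq2 both without and with the block. Neither block changed the call of a member. No paired test of a ratio was run, since 5 pairs give an exact two-sided p of 0.0625 at the smallest. Scaling by library size alone gave 40.8% of called genes as higher, against 51.4% with TMM. DBP had too few counts for a test, and TEF and BACH1 had wide intervals.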
